A study of Mus musculus with 3 samples.

Results

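The oxidative phosphorylation (OXPHOS) genes of the mouse lung were followed across cell types, as a set of nuclear genes, a set of mitochondrial genes, and the ratio between them. Members were chosen by symbol alone: Nduf with a subunit letter and number, Sdha to Sdhd, and symbols that start with Uqcr, Cox4 to Cox8, Atp5, or mt-, with Cox4i2 left out. This gave 96 of the 28692 genes in the matrices, 83 nuclear and 13 mitochondrial (mt-). The nuclear members were 35 genes of complex I, 4 of complex II, 8 of complex III, 19 of complex IV, and 17 of complex V. The mt- members were 7 genes of complex I, 1 of complex III, 3 of complex IV, and 2 of complex V. Ndufa4 and Ndufa4l2 were counted with complex IV, where the NDUFA4 protein is now placed. The rule also takes in Cox7a2l, Atp5s, and Atp5sl, which are not classic subunits. By symbol, Cox7a2l was counted with complex IV, and Atp5s and Atp5sl with complex V, in all counts by complex. Single-cell RNA-Seq (scRNA-Seq) had been run on whole lungs of 3 wild-type C57BL/6 mice (mice 2, 3, and 4) kept in room air (RA) from P1 until the lungs were taken at P14. With 1 condition, cell types of the same 3 mice were compared, and the mouse was the replicate. The main tests had no term for the mouse, so they did not use this pairing.

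OXPHOS makes ATP at the inner mitochondrial membrane. Complexes I and II take electrons from NADH and succinate, complex III hands them to cytochrome c, complex IV reduces oxygen, and complex V (ATP synthase) runs on the proton gradient that the others build. Complex II is encoded entirely by nuclear genes, whereas the other complexes combine imported nuclear subunits with core subunits made inside the organelle from mitochondrial DNA. In the lung, surfactant-making alveolar type 2 (AT2) cells are known to be rich in mitochondria, and neutrophils are known to depend largely on glycolysis.

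The nuclear members are dispersed over the chromosomes, each with its own promoter, and the mt- members lie side by side on 1 circle that is transcribed into long precursors. Sequences of both kinds are shown to make this contrast visible. RefSeq promoter windows (GRCm38.p6), which run from 250 bases before to 50 bases after a gene's start, were matched for 66 of the 83 nuclear members. Searching both strands, the nuclear respiratory factor 1 (NRF1) motif CGCATGCG was present for 9 of them (13.6%), against 2.07% of 27025 genes. The ETS motif CCGGAAG, a form that GABP can bind, was present for 16 (24.2% against 9.93%), and the YY1 motif AAGATGGCG for 7 (10.6% against 1.64%). The ETS motif ends with the letters that open the YY1 motif, so these 2 can overlap. At least 1 of these 3 motifs was found for 26 members (39.4% against 12.8%) and none for 40. The SP1 motif GGGCGG was present for 26 (39.4% against 38.2%). Motif matches describe letters and are not binding sites. Of the windows printed below, that of Atp5j (coupling factor 6 of complex V, the second of its entries) holds NRF1, ETS, and YY1 motifs, that of Cox6a1 (the common form of a complex IV subunit) holds NRF1 and ETS motifs, that of Ndufa8 (complex I) holds an NRF1 motif, and that of Ndufa4 holds none of these. Capitals mark the NRF1, ETS, and YY1 motifs. SP1 motifs, present in the windows of Cox6a1 and Ndufa8, were left in lower case. The windows, all on the minus strand and written 5′ to 3′, are chr16:84834927-84835226, chr5:115348909-115349208, chr2:36049289-36049588, and chr6:11907401-11907700.
Atp5j: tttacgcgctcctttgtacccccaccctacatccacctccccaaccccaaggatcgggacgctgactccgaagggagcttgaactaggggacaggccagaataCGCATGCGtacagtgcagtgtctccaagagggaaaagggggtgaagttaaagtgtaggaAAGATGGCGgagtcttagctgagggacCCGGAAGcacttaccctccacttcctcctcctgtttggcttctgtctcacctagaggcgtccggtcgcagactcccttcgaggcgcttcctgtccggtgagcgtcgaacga
Cox6a1: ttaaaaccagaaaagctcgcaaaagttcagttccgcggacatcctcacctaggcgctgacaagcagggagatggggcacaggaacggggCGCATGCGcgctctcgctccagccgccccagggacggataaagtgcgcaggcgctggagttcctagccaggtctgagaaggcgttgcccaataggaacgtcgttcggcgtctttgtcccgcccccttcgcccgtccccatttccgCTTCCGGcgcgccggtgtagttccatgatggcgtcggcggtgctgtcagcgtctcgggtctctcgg
Ndufa8: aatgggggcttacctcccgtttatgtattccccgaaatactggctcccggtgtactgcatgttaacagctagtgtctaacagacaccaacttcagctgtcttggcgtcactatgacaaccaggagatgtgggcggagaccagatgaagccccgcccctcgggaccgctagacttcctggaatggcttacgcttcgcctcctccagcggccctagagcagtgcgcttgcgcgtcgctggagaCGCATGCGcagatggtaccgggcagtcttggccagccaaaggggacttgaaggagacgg
Ndufa4: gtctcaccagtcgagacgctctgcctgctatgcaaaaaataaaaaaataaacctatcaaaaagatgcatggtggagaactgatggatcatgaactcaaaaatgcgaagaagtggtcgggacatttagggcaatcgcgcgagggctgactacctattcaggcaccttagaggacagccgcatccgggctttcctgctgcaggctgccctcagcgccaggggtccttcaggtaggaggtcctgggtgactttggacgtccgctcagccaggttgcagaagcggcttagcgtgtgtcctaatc
Among the mt- genes, mt-Atp8 (chrM:7766-7969) and mt-Atp6 (chrM:7927-8607) are read in different frames and share 43 bases at chrM:7927-7969 on the plus strand (GENCODE M21, GRCm38). That stretch is printed because a read inside it belongs to both genes, and the capitals mark the start codon of mt-Atp6.
mt-Atp8 and mt-Atp6: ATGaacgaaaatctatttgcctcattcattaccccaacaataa

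The matrices hold 9644 barcodes, whereas the series design text gives 5677 cells. Cells with at least 200 detected genes were kept with no mitochondrial limit, which left 2710, 3011, and 3061 cells in mice 2, 3, and 4, with 23269662, 22245809, and 24626412 unique molecular identifiers (UMIs), each counting 1 captured transcript. Of the barcodes, 12 were found in 2 libraries. Clustering without the members gave 33 clusters, and 27 of them carried the markers of 1 of 21 cell types. All type names below mean "like" that type by its markers, and clusters with no name are called by their leading gene. Cartilage genes (Col2a1, Col10a1, and Col11a1) were among the leading genes of the Col14a1-type fibroblast cluster. Marked doublets (207 cells) were kept.

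The nuclear members took 1.42% of all UMIs and the mt- members 9.09%. By mouse, the nuclear share was 1.47%, 1.40%, and 1.38% and the mt- share 8.83%, 9.76%, and 8.75%.

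The 4 classes of lung cells were close in the nuclear share and further apart in the mt- share. Of all UMIs, nuclear members took 1.33%, 1.23%, and 1.22% in endothelial cells (EC) of mice 2, 3, and 4, 1.36%, 1.25%, and 1.23% in immune cells, 1.49%, 1.47%, and 1.45% in epithelial cells, and 1.503%, 1.44%, and 1.46% in stromal cells. Epithelial and stromal cells lay above EC and immune cells in every mouse. Immune cells were slightly above EC in each mouse, while the order of epithelial and stromal cells changed between mice. The mt- share was 12.4%, 12.3%, and 12.5% in immune cells, the highest, and 7.10%, 6.89%, and 6.67% in stromal cells, the lowest. EC had 8.23%, 8.25%, and 7.58% and epithelial cells 8.61%, 9.20%, and 8.52%. No class overlapped another in the mt- share. The ratio of nuclear to mt- UMIs was 0.212, 0.209, and 0.218 in stromal cells and 0.110, 0.102, and 0.0990 in immune cells, with EC (0.161, 0.149, and 0.161) and epithelial cells (0.174, 0.159, and 0.170) between them. Epithelial cells were above EC in each mouse, although the values of different mice overlapped. Since mt- UMIs are part of the total, the nuclear share was also taken over the UMIs other than mt-, where it was 1.37% in EC, 1.46% in immune, 1.57% in stromal, and 1.61% in epithelial cells (means of 3 mice).

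Cell types spread much further than classes, mainly in the mt- share. Alveolar macrophages (393 cells) had mt- shares of 29.5%, 30.1%, and 29.8% and interstitial macrophages (151 cells) of 14.6%, 12.4%, and 11.4%. Neutrophils (483 cells) had 2.51%, 3.48%, and 2.45%. The mice of these 3 types did not overlap. Of the UMIs other than mt-, nuclear members took 2.15%, 1.96%, and 1.78% in alveolar macrophages, 1.59%, 1.33%, and 1.44% in interstitial macrophages, and 0.806%, 0.769%, and 0.767% in neutrophils. Both sets thus had the same order in these cells, and the mt- set had the wider range.

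The ratio put the types in another order. Alveolar macrophages had the lowest of the named types (0.0513, 0.0455, and 0.0419), followed by B cells (0.0921 ± 0.00347), club cells (0.0936 ± 0.0103), and interstitial macrophages (0.0933, 0.0941, and 0.113 in mice 2, 3, and 4; mean ± SD, n = 3 mice for types given with an SD), which did not differ beyond their spread. Pericytes (0.130 ± 0.00903), arterial EC (0.134 ± 0.0116), and venous EC (0.142 ± 0.0116) were also alike within their spread. Aplnr-type capillary EC (0.164 ± 0.00873), T cells (0.164 ± 0.0215), Car4-type capillary EC (0.176 ± 0.0190), AT2 cells (0.181 ± 0.00338), and dendritic cells (0.182 ± 0.0383) formed the middle of the order, each within 1 SD of a neighbour. Above them were myofibroblasts (0.214 ± 0.00885), smooth muscle (0.214 ± 0.00867), AT1 cells (0.224 ± 0.0175), Col14a1-type fibroblasts (0.224 ± 0.0140), NK cells (0.230 ± 0.0120), basophils or mast cells (the mean of mice 3 and 4, 0.247), and Col13a1-type fibroblasts (0.253 ± 0.0176). Neutrophils had the highest mean of the named types, with mouse 3 below the other mice (0.313, 0.213, and 0.305). Platelets (34 cells) ranged from 0.0486 to 0.281 between mice. Across the 21 named types, the nuclear share of UMIs other than mt- and the mt- share had a Pearson r of 0.39 and a Spearman rho of 0.27, a description of types that share libraries.

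**Figure D1:**
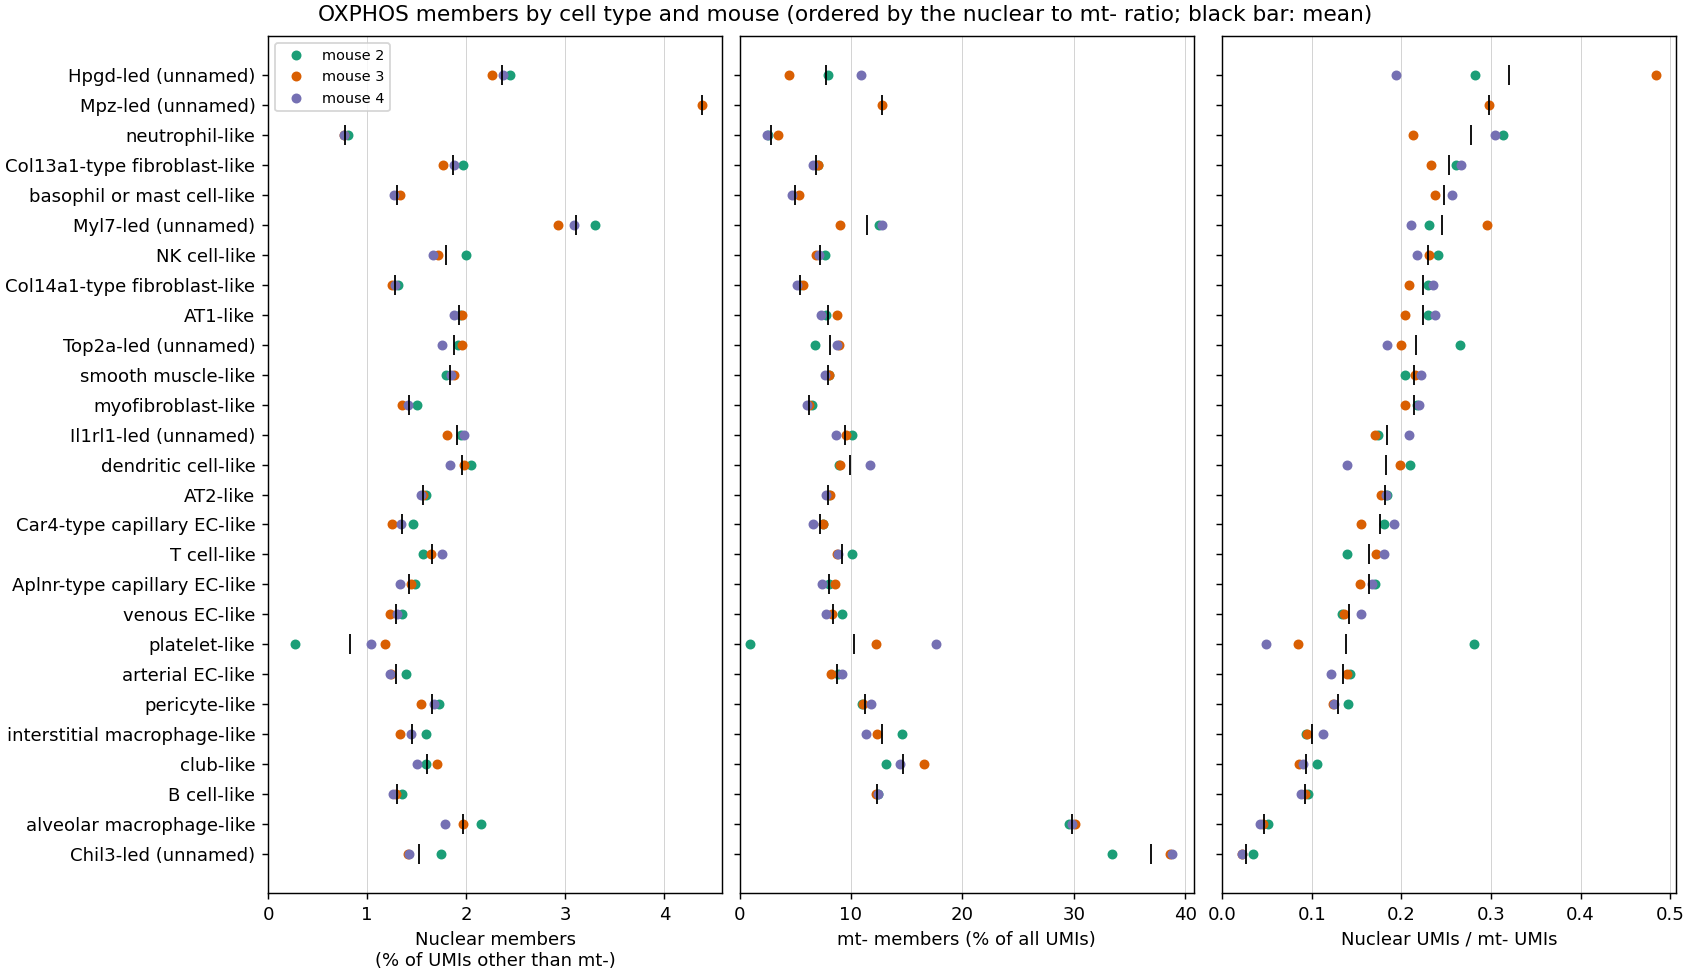
Nuclear members as percent of the UMIs other than mt-, mt- members as percent of all UMIs, and the ratio of nuclear to mt- UMIs in each cell type and unnamed cluster, with 1 point per mouse. Alveolar macrophages lie near 30% mt- UMIs in each mouse (29.5%, 30.1%, and 29.8%) and neutrophils at 2.51%, 3.48%, and 2.45%.

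In the epithelium, AT1 cells, the thin cells of gas exchange, had nuclear shares of 1.94%, 1.95%, and 1.87% of the UMIs other than mt-, above the 1.60%, 1.56%, and 1.54% of AT2 cells. Their mt- shares overlapped (7.78%, 8.73%, and 7.32% in AT1 and 7.99%, 8.09%, and 7.76% in AT2 cells). Club cells, secretory cells of the airway, had a nuclear share of 1.60% ± 0.101 and a mt- share of 14.7% ± 1.72, above both alveolar types. Part of the AT1 type came from a shallow cluster of 84 cells with 1320 median UMIs, against 21504 in the other AT1 cluster. In the stroma, Col13a1-type fibroblasts (1.97%, 1.77%, and 1.87%) and smooth muscle (1.84% ± 0.0434) were high in the nuclear share and Col14a1-type fibroblasts (1.31%, 1.25%, and 1.28%) were low. The 4 EC types ran from 1.29% ± 0.0870 in arterial to 1.42% ± 0.0772 in Aplnr-type capillary EC. Their values overlapped, and Aplnr-type were above arterial EC in each mouse.

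The mt- share also varied from cell to cell. The median alveolar macrophage had 35.4%, 31.9%, and 36.2% mt- UMIs in mice 2, 3, and 4, and 325 of 393 of them (82.7%) were over 20%. They made up 28.5% of the 1140 cells over 20% in the series, and a limit at 20% leaves 68 alveolar macrophages. B cells made up another 24.8% (283 cells). Such cells were 34.5% of club cells, 20.3% of dendritic cells, and 0.733% of myofibroblasts (6 of 819). The effect of a mitochondrial limit is therefore uneven between types.

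Cells on either side of 20% also differed in the nuclear members. In alveolar macrophages, nuclear members took 2.50% ± 0.198 of the UMIs other than mt- in cells at or under 20% and 1.61% ± 0.221 in cells over it (SD over mice). Malat1, a transcript retained in the nucleus, went the other way, with 1.76% and 5.52% of the same UMIs. The nuclear members likewise went from 1.69% ± 0.0948 to 0.694% ± 0.169 in T cells, from 2.01% ± 0.101 to 1.13% ± 0.250 in dendritic cells, and from 1.57% ± 0.0283 to 0.933% ± 0.0365 in AT2 cells, with Malat1 at 1.61% and 5.58% in T cells and 2.21% and 5.65% in AT2 cells. In AT2 cells the sides of the limit lay in different clusters. Of the AT2 cells over 20%, 43 of 46 were in a cluster led by Snhg11 (150 cells, 6740.5 median UMIs), and of those at or under it 942 of 1049 were in a cluster led by Slc34a2 (16544 median UMIs). Not every type followed. The nuclear members went from 1.28% ± 0.0850 to 1.48% ± 0.143 in arterial EC, and over fewer mice from 1.35% to 1.70% in Car4-type capillary EC, from 1.92% to 2.11% in AT1 cells, and from 0.776% to 0.854% in neutrophils (2, 2, and 1 mice with at least 5 cells over the limit). Malat1 was lower over the limit in Car4-type cells (2.94% and 0.790%). The 16 Car4-type cells over the limit were all in a cluster led by Apln (90 cells, 844.5 median UMIs). The Car4-type cluster led by Kdr (96 cells, 9413 median UMIs) had 0. Of the 21 AT1 cells over the limit, 18 were in the shallow cluster of 84 cells. In these 2 types the limit thus also set clusters of different depth against each other. Depth differed across the limit in the other types too. Median UMIs at or under and over it (means of mice) were 5154 and 3001.5 in alveolar macrophages, 5896 and 1934 in T cells, and 7870 and 3534.5 in dendritic cells. They were 16344.5 and 5719 in AT2 cells, 5841 and 2267 in arterial EC, and 2101 and 2593.5 in neutrophils. The parts of depth and of damaged cells in these values were not tested.

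Across the cells of 1 type in 1 mouse, the Spearman rho between the nuclear share of the UMIs other than mt- and the mt- share was -0.67, -0.58, and -0.52 in alveolar macrophages (90, 177, and 126 cells), -0.58, -0.53, and -0.68 in T cells, and -0.63, -0.61, and -0.76 in dendritic cells. It was weaker in AT2 cells (-0.28, -0.17, and -0.27), and it was above 0 in arterial EC (0.23, 0.05, and 0.24) and smooth muscle (0.07, 0.09, and 0.16). Depth moved with the mt- share in some types, with a rho of -0.62, -0.54, and -0.64 in T cells, and its part was not tested.

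**Figure D2:**
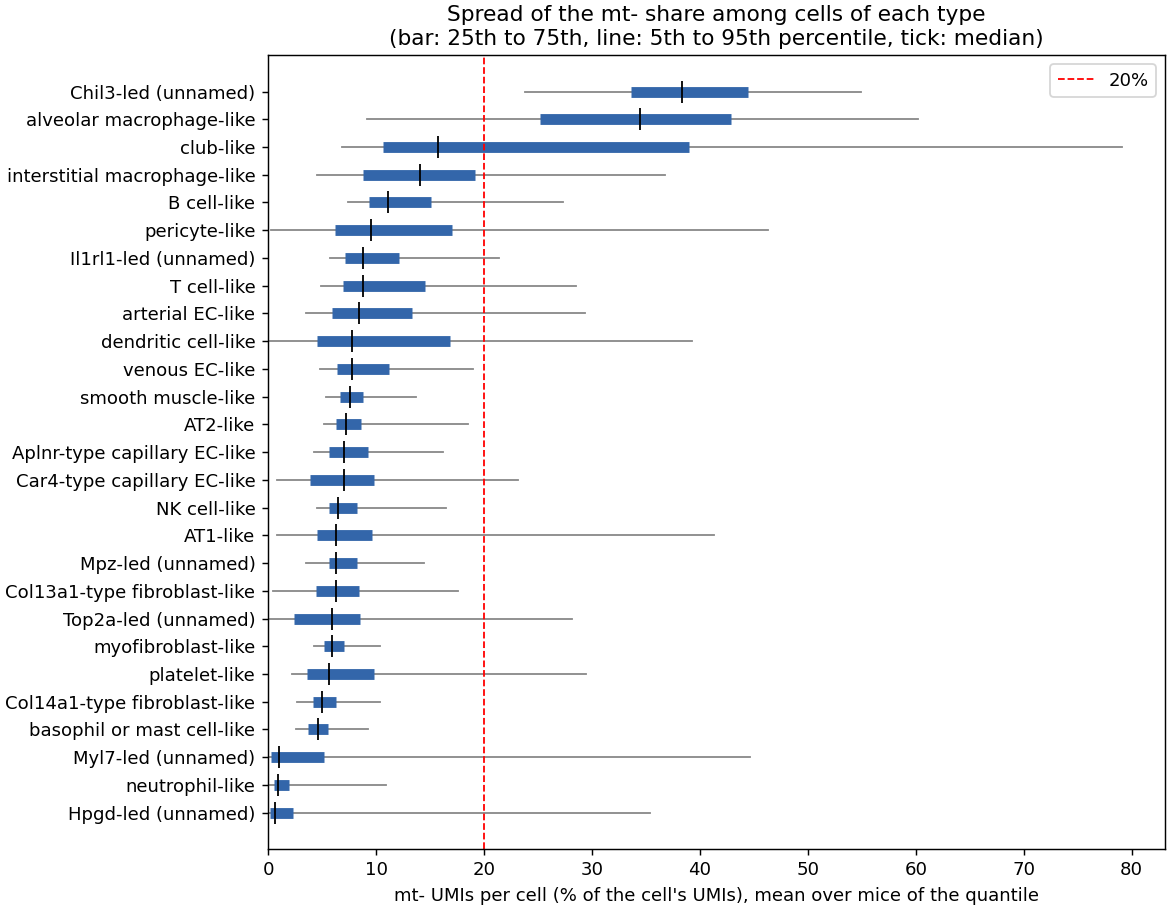
Spread of the mt- share of UMIs per cell, in percent, in each cell type and unnamed cluster, with the limit of 20% drawn as a line. Most alveolar macrophages lie past the limit (82.7%) and few myofibroblasts do (0.733%).

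The mt- members differed between types in their proportions to one another as well as in their sum. The values that follow are shares of mt- UMIs, with the range over all types and clusters. The complex IV core subunit genes mt-Co1, mt-Co2, and mt-Co3 had medians of 16.6%, 14.95%, and 19%. mt-Co1 ran from 12.9% (pericyte) to 24.2% (platelet), mt-Co2 from 12.4% to 16.5%, and mt-Co3 from 16.4% to 21.4%. Of the complex V genes, mt-Atp6 ran from 16.7% to 20.8%, and mt-Atp8, which shares the 43 bases printed above with it, from 0.0668% to 0.244%. How reads in that stretch were divided is not given in the sources used here. mt-Co1 took 21.4, 20.6, and 20.7% in club cells and 12.8, 13.3, and 13.2% in Car4-type capillary EC of mice 2, 3, and 4, without overlap. mt-Cytb, the complex III gene, ran from 6.08% to 11.5%.

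The complex I genes took smaller shares. mt-Nd1 ran from 2.76% (basophil or mast cell) to 6.14% (Car4-type capillary EC), mt-Nd2 from 2.76% to 6.05%, and mt-Nd4 from 5.25% to 8.52%. mt-Nd3 ran from 1.07% to 2.30%, mt-Nd5 from 0.692% to 1.22%, and mt-Nd4l, which shares 7 bases with mt-Nd4, from 0.138% to 0.426%. mt-Nd6 is the only mt- member on the minus strand and had 2304 UMIs in all, with a median share of 0.0372%.

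The nuclear UMIs were divided between the complexes in 20 named types as follows, with complex II furthest apart relative to its size. Complex I took from 26.2% (basophil or mast cell) to 32.2% (Car4-type capillary EC), and complex V from 25.1% (pericyte) to 32.9% (T cell). Complex IV took from 26.4% (B cell) to 31.4% (neutrophil), and complex III from 8.29% (neutrophil) to 12.1% (club). Complex II took from 1.69% ± 0.0198 (AT1) to 2.99% ± 0.127 (venous EC; SD, n = 3 mice).

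Single members were tested on UMIs summed per mouse with the quasi-likelihood test of edgeR, and p-values were adjusted over all genes by Benjamini-Hochberg (threshold 0.05). The ± after a log2 change is a standard error derived from the F statistic of that test, and is not an SD over mice. Each class was compared with the mean of the other 3, so the 4 class comparisons rest on the same sums and are not independent of one another. Of the members, 93 had enough UMIs for the class tests, and Cox7b2, Cox8b, and Cox8c did not. Changes depend on how libraries are scaled. TMM, the main scaling, centers the bulk of genes near no change, and plain library size moved the median log2 change of all genes from -0.07 to 0.22 in EC, from -0.08 to -0.44 in epithelial cells, from -0.01 to 0.14 in stromal cells, and from -0.04 to -0.12 in immune cells. Levels are CPM, the UMIs of a gene scaled to a common total per sum, from 3′ tags and were not compared between genes, except as shares of an isoform pair.

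EC were lower than the other classes in most members, relative to the rest of their genes. Of 93 members, 74 were lower and 2 higher in EC, whereas 30.8% and 29.7% of all genes were. The median log2 change was -0.42 for nuclear and -0.38 for mt- members, against -0.07 for all genes. Without TMM, 36 were lower and 14 higher, with medians of -0.13, -0.09, and 0.22, and 9 of the 76 called members changed sign, Atp5b, Ndufc2, Uqcr11, mt-Nd1, and mt-Nd6 among them. By complex, 28 of 35 nuclear members of complex I were lower, 5 of 8 of complex III, 13 of 16 of complex IV, and 15 of 17 of complex V. The 4 genes of complex II had log2 changes from -0.14 to 0.07, none past the threshold.

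Ndufa8 (chr2:36036326-36049406), an accessory subunit of complex I whose promoter window is printed above, went against the other members. It had 177, 143, and 160.3 CPM in EC and 66.6 to 105 CPM in the other classes, with no overlap (log2 change 0.66 ± 0.075, adjusted p = 1.9e-06). This gene was picked for a large change that held in every mouse. Among EC types it was lowest in arterial EC (80.9, 77.9, and 101 CPM) and had 265, 191, and 164 CPM in venous EC. Ndufa4l2, a paralog of Ndufa4 that hypoxia is known to induce, was the other member called higher. It had 7.19, 9.52, and 13.7 CPM in EC, above epithelial and immune cells (at most 1.01 CPM) and below stromal cells (115, 55.3, and 84.4 CPM). Its log2 change of 1.29 ± 0.41 (adjusted p = 0.0139) became 0.55 without doublets and 1.01 without mouse 4, and was not called in either. With classes from each cell's own markers it was 1.10 and also not called.

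The largest fitted decreases in EC were in isoforms with few UMIs. Cox6b2, the testis form of a complex IV subunit, had 2.01, 1.52, and 2.69 CPM in EC and at least 9.89 CPM in the other classes (log2 change -3.27 ± 0.23, adjusted p = 8.5e-09). Cox6a2, the heart and skeletal muscle form of another, had 1 UMI in all EC, and Cox7a1, also a heart and muscle form, had 6, so that their fitted changes of -5.42 ± 0.69 and -2.07 ± 0.43 depend on the prior count. Of a list of core subunits, 9 of 14 tested were lower, led by Cox4i1 (-0.59 ± 0.070, adjusted p = 2.9e-06), Atp5a1 of complex V (-0.44 ± 0.062, adjusted p = 2.2e-05), and Uqcrfs1, the iron-sulfur protein of complex III (-0.46 ± 0.075, adjusted p = 8.3e-05). This list, used in all comparisons, takes in the nuclear complex IV genes Cox4i1 and Cox5a, which lie outside the mt- encoded core of that complex.

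All 13 mt- members were lower in EC than the mean of the other classes, from -0.75 ± 0.052 for mt-Co1 to -0.24 ± 0.072 for mt-Nd1. Without TMM 4 were called lower, with mt-Nd1 at 0.05 and mt-Nd6 at 0.01. mt-Co1 had 11242, 11779, and 11000.5 CPM in EC, 10302, 10709.9, and 10076 CPM in stromal, 15380, 16737, and 15391 CPM in epithelial, and 22707, 23441, and 23225 CPM in immune cells. EC were thus below epithelial and immune cells but above stromal cells for this gene. The whole mt- share was also above that of stromal cells in each mouse (8.23%, 8.25%, and 7.58% against 7.10%, 6.89%, and 6.67%). In CPM, mt-Nd1 and mt-Atp6 were higher in EC than in epithelial cells as well in each mouse. The lower calls therefore do not hold against each class.

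With TMM scaling, epithelial cells were higher in most members. Of 93 members, 81 were higher and 4 lower, whereas 34.9% and 36.8% of all genes were. The median log2 change was 0.45 for nuclear and 0.33 for mt- members, against -0.08 for all genes. Without TMM, 42 were higher and 17 lower, with medians of 0.10, -0.02, and -0.44. Then 23 of the 85 called members had the opposite sign, and 5 of them were called in that direction: mt-Nd1 (0.19 with and -0.16 without TMM), mt-Co2 (0.18 and -0.17), mt-Atp6 (0.20 and -0.16), mt-Atp8 (0.18 and -0.17), and Uqcrc2 (0.15 and -0.20).

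Ndufc2, a complex I subunit, had 274, 263, and 261 CPM in epithelial cells and 85.4 to 166 CPM in the other classes (log2 change 1.43 ± 0.054, adjusted p = 3.3e-12). The muscle form Cox6a2 had 35.6, 44.5, and 37.9 CPM and at most 2.79 CPM elsewhere (log2 change 6.23 ± 0.21, adjusted p = 7.5e-13), and Cox7a1 had 3.25, 4.81, and 3.76 CPM and at most 2.79 CPM (log2 change 2.06 ± 0.26, adjusted p = 4.4e-06). Epithelial cells did not overlap the other classes in these 3 genes, which were picked for large changes that held in every mouse. How many of all genes did not overlap was not counted. Lower were Ndufa4l2, with 11 UMIs in all epithelial cells (log2 change -3.90 ± 0.63, adjusted p = 4.9e-05), Atp5sl (log2 change -0.58 ± 0.11, adjusted p = 0.000188), and Ndufs1, the largest core subunit of complex I (log2 change -0.21 ± 0.066, adjusted p = 0.0104). Ndufs1 had 36.7, 42.7, and 39.9 CPM against at least 53.8 CPM elsewhere. It lost its call with DESeq2 (-0.15), without mouse 2 (-0.19), and without mouse 4 (-0.20). Of the list of core subunits, 9 of 14 were higher, led by Atp5a1 (0.52 ± 0.058, adjusted p = 1.3e-06), Cox4i1 (0.57 ± 0.065, adjusted p = 1.5e-06), and Uqcrfs1 (0.42 ± 0.066, adjusted p = 4.3e-05).

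Stromal cells were low in mt- members, while calls of nuclear members were below the background both ways. Of 93 members, 15 were higher and 32 lower, whereas 36.0% and 31.4% of all genes were. The higher count was below the background and the lower count near it. Of the 80 nuclear members alone, 15 were higher and 20 lower, both below these shares. Of the mt- members, 12 were lower, all but mt-Nd6 (-0.13 ± 0.096), and mt-Co1 fell most (-0.78 ± 0.052). Nuclear members had a median log2 change of -0.02 and mt- members one of -0.59, against -0.01 for all genes. Without TMM, 37 were higher and 22 lower, with medians of 0.13, -0.44, and 0.14.

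Ndufa4l2 rose most in stromal cells, to 115, 55.3, and 84.4 CPM (log2 change 5.51 ± 0.25, adjusted p = 2.6e-11). Cox6b2 had 24.8, 30.4, and 27.4 CPM against at most 18.3 CPM elsewhere (log2 change 1.77 ± 0.14, adjusted p = 2.1e-08), and Ndufa11 of complex I had 192, 167, and 164 CPM against at most 126 CPM (log2 change 0.60 ± 0.084, adjusted p = 1.4e-05). Lower were Atp5sl, which despite its symbol encodes an assembly factor of complex I, with 5.95, 5.36, and 4.22 CPM (log2 change -2.25 ± 0.12, adjusted p = 2.6e-10), and Cox5a of complex IV, with 127, 122, and 119 CPM against at least 143 CPM (log2 change -0.63 ± 0.077, adjusted p = 3.3e-06). Atp5g2, for the c subunit of the ATP synthase ring, had 210.2, 225, and 219 CPM against at least 246 CPM (log2 change -0.47 ± 0.070, adjusted p = 2.7e-05). The stromal sums stood outside those of the other classes in all 6 genes, which were picked for large changes that held in every mouse. How many of all genes stood apart in this way was not counted.

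Immune cells were high in mt- members as a class, and their nuclear members went both ways. Of the 3774 immune cells, 2067 were B cells, with mt- shares of 12.4%, 12.2%, and 12.5% in mice 2, 3, and 4. Both macrophage types lay above EC in each mouse. NK cells (7.64%, 6.89%, and 7.12%) and neutrophils (2.51%, 3.48%, and 2.45%) lay below EC in each mouse, so the class value does not hold for every immune type. Of 93 members, 31 were higher and 23 lower, whereas 38.3% and 38.3% of all genes were, so these counts were below the background. The median log2 change was -0.01 for nuclear and 0.57 for mt- members, against -0.04 for all genes. All 13 mt- members were higher, from 0.32 ± 0.096 for mt-Nd6 to 1.00 ± 0.048 for mt-Co1. Without TMM, 27 members were higher and 32 lower. With cells over 20% mt- UMIs left out, 6 mt- members were higher and their median was 0.17.

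Atp5sl had 72.0, 75.9, and 69.6 CPM in immune cells against at most 16.8 CPM elsewhere (log2 change 3.07 ± 0.082, adjusted p = 4.4e-14). By type, it had 110.5, 119, and 116 CPM in B cells, 82.1, 38.4, and 34.6 CPM in T cells, and 23.5, 7.10, and 8.26 CPM in neutrophils. Ndufs8, a core subunit of complex I (log2 change 0.62 ± 0.088, adjusted p = 1.1e-05), and Cox5a (log2 change 0.59 ± 0.072, adjusted p = 2.2e-06) followed. Ndufc2, which was high in the epithelium, was lowest in immune cells at 93.3, 90.0, and 85.4 CPM (log2 change -0.94 ± 0.063, adjusted p = 2.5e-09). Uqcr11, a small subunit of complex III, had 135, 127, and 132 CPM against at least 211 CPM (log2 change -0.83 ± 0.060, adjusted p = 5e-09). Ndufa4l2 had 1.01, 0.947, and 0.856 CPM (log2 change -2.89 ± 0.63, adjusted p = 0.000697).

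**Figure D3:**
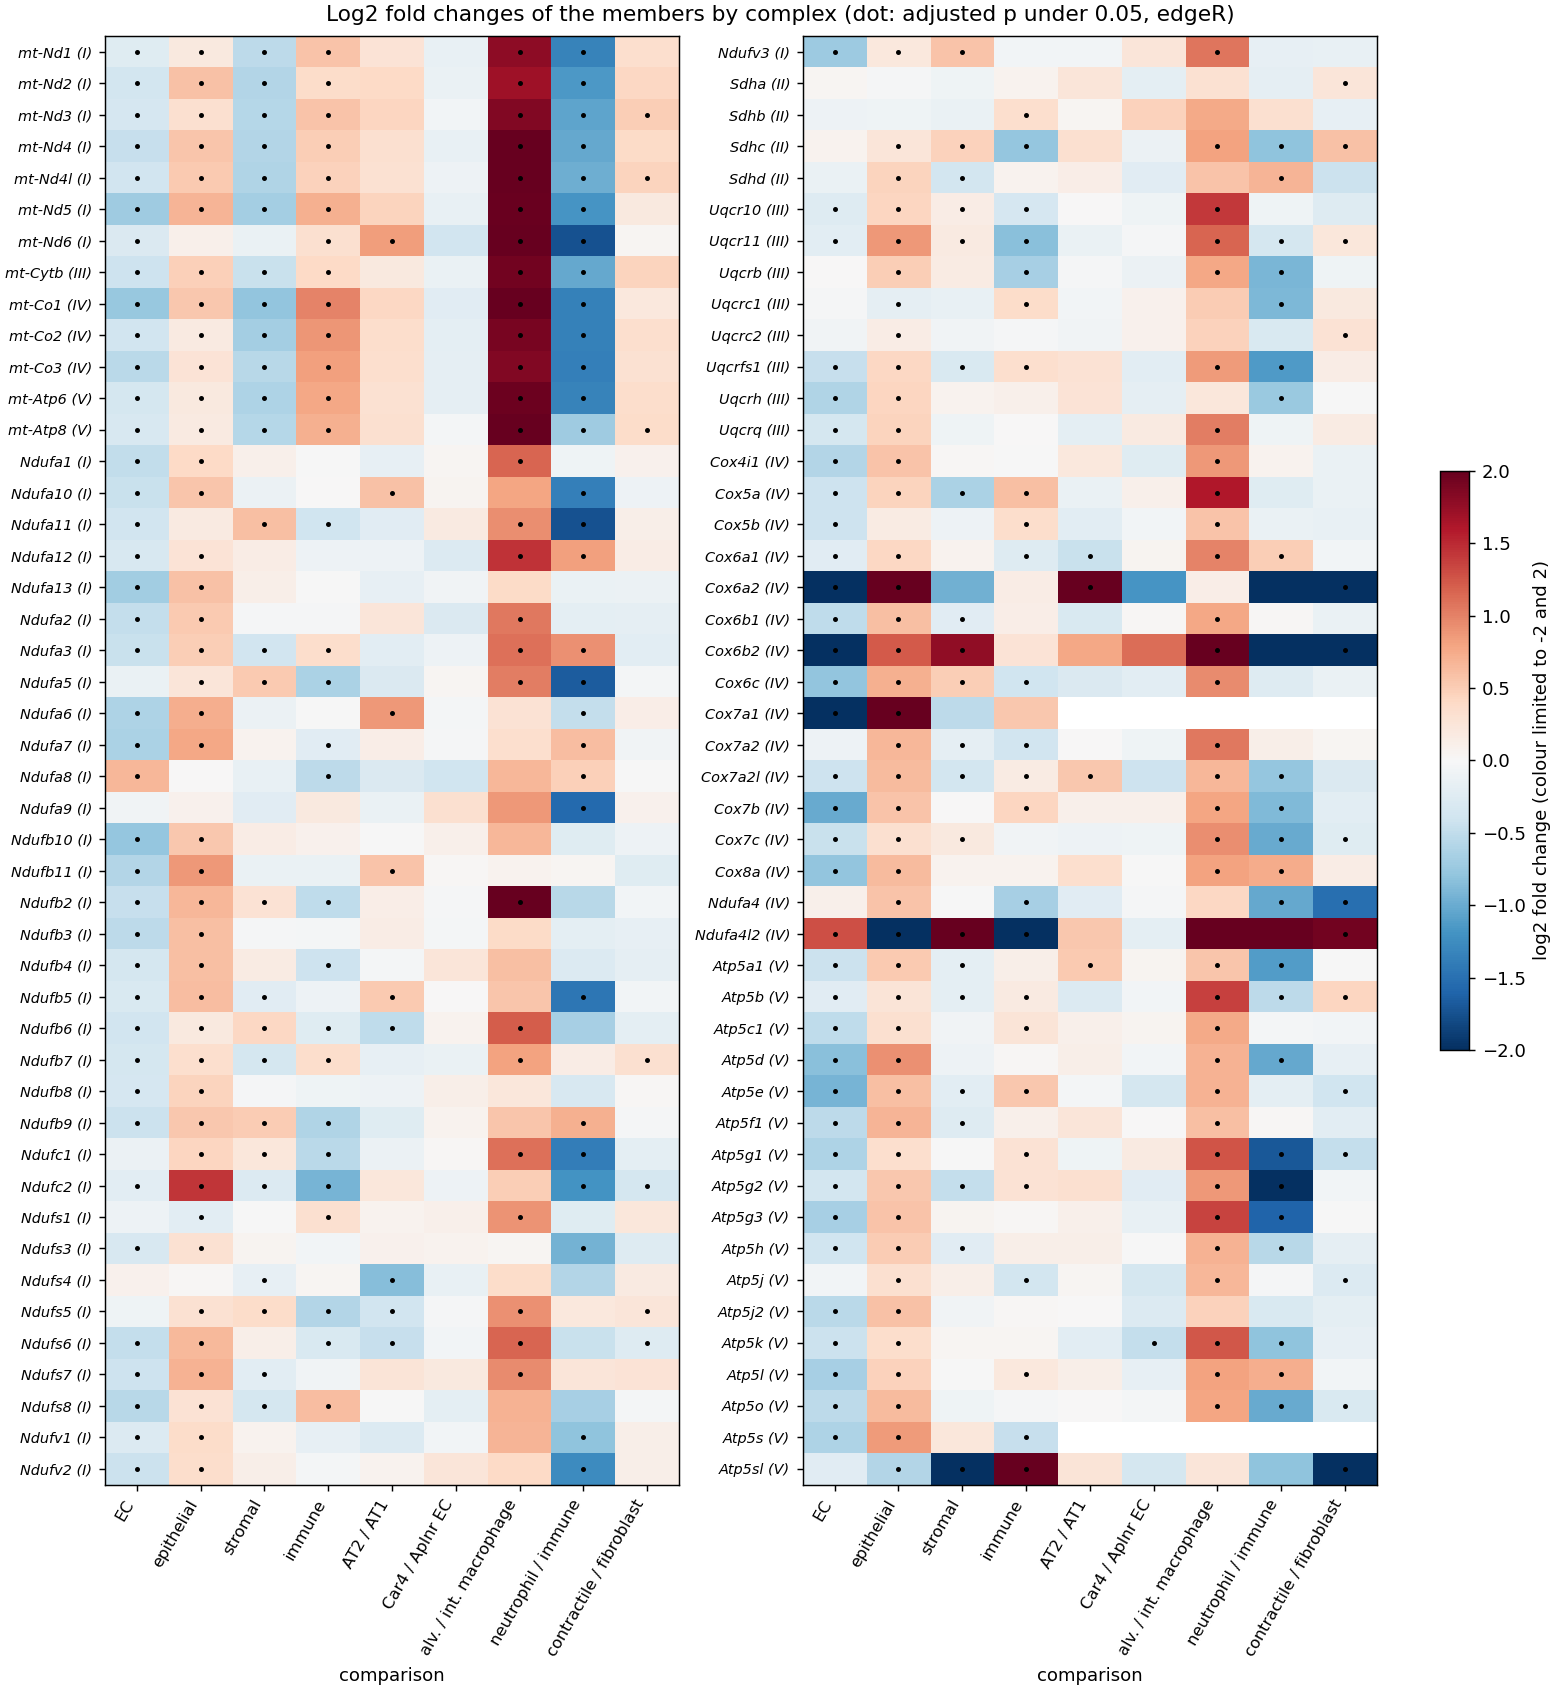
Log2 fold change of each tested member that is reported here, in each comparison, as a color scale with TMM scaling, with the calls of edgeR's quasi-likelihood test marked. Most members are negative in EC (74 of 93 called lower) and positive in epithelial cells (81 called higher).

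Cell types were compared in 1 fit over all named types, in which 91 members were tested. Cox7a1 and Atp5s were too low there as well. Alveolar macrophages, the resident phagocytes of the air spaces, were higher than interstitial macrophages in most members with TMM scaling. Of 91 members, 61 were higher in alveolar macrophages, whereas 9.30% of all genes were, and 0 were lower (0 at an unadjusted p under 0.05 and 0 with DESeq2), whereas 7.66% of all genes were. The median log2 change was 0.79 for nuclear and 1.96 for mt- members, against 0.00 for all genes. Without TMM, 21 were higher and 2 lower, with medians of 0.09, 1.27, and -0.40. Without mouse 3, 35 were higher.

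All 13 mt- members were higher in alveolar macrophages, from 1.70 ± 0.33 for mt-Nd2 to 2.46 ± 0.35 for mt-Nd6. mt-Co1 had 56978, 58478, and 55994 CPM in alveolar and 26933, 22157, and 20630.2 CPM in interstitial macrophages, without overlap. With cells over 20% mt- UMIs left out, the mt- median was 0.54 with 5 mt- members called, and the nuclear median was 0.82. The limit acts on the mt- share itself and left 68 of 393 alveolar and 116 of 151 interstitial macrophages. A smaller mt- difference is thus built into it, and nothing is concluded from that change.

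Of the nuclear members, 16 of 35 of complex I were higher, 5 of 8 of complex III, 12 of 15 of complex IV, and 14 of 16 of complex V. Cox5a had 359, 283, and 301 CPM in alveolar and 171, 176, and 155 CPM in interstitial macrophages (log2 change 1.60 ± 0.20, adjusted p = 5.1e-09). Ndufb2, of the membrane arm of complex I, had 86.8, 104, and 99.7 against 49.8, 22.0, and 46.0 CPM (log2 change 1.99 ± 0.32, adjusted p = 2.4e-06). Cox6b2 had 36.4, 51.1, and 55.6 against 7.12, 22.0, and 17.2 CPM, the latter from 7 UMIs (log2 change 2.34 ± 0.56, adjusted p = 0.00161). It lost its call with at most 20% mt- UMIs (1.77). None of the 3 genes overlapped between the macrophages. They were picked for large changes that held in every mouse, which favors such a result. How many of all genes did not overlap was not counted. Of the list of core subunits, 8 of 14 were higher, with Atp5b, the catalytic subunit of complex V (1.36 ± 0.20, adjusted p = 6e-07), next to Cox5a.

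Neutrophils were low in both sets against the mean of the other immune types. Of 91 members, 43 were lower and 9 higher, whereas 14.9% and 22.5% of all genes were. The median log2 change was -0.32 for nuclear and -1.18 for mt- members, against -0.02 for all genes. All 13 mt- members were lower, and mt-Co1 had 4429, 6544, and 4599 CPM. Without TMM, 77 were lower and 0 higher, with medians of -0.95, -1.81, and -0.54. Without mouse 3, 4 were higher.

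The 3 genes of the c ring of ATP synthase were among the lowest members in neutrophils. Atp5g2 had 35.3, 55.0, and 49.5 CPM in neutrophils and 323, 267, and 266 CPM in B cells (log2 change -2.001 ± 0.16, adjusted p = 5e-16), and Atp5g1 had 23.5, 40.8, and 24.8 against 141, 122, and 127 CPM (log2 change -1.70 ± 0.23, adjusted p = 1e-08). Atp5g3 followed (log2 change -1.60 ± 0.21, adjusted p = 2.2e-09). Ndufa11 had 23.5, 12.4, and 24.8 against 93.1, 80.5, and 88.3 CPM (log2 change -1.75 ± 0.29, adjusted p = 1.7e-06). Of the core subunits, 6 of 14 were lower, led by Atp5a1 (-1.12 ± 0.13, adjusted p = 3.3e-10), Uqcrfs1 (-1.14 ± 0.25, adjusted p = 0.000199), and Uqcrc1 of complex III (-0.89 ± 0.20, adjusted p = 0.000367). Higher, relative to the other genes, were Cox8a of complex IV with 534, 539.7, and 517 CPM (log2 change 0.74 ± 0.13, adjusted p = 2.7e-06), Atp5l of complex V with 475, 437, and 446 CPM (log2 change 0.72 ± 0.11, adjusted p = 1.9e-07), and Ndufa12 of complex I with 86.3, 76.3, and 46.8 CPM (log2 change 0.82 ± 0.26, adjusted p = 0.00841). These 3 had changes of 0.11, 0.09, and 0.19 without TMM, and none was called. Ndufa12 also lost its call without mouse 3 (1.52).

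AT2 and AT1 cells differed in few members with TMM scaling. Of 91, 8 were higher and 5 lower in AT2 cells, whereas 19.3% and 14.2% of all genes were, so both counts were under the background. Nuclear members had a median log2 change of 0.01 and mt- members one of 0.34, against 0.18 for all genes. Without TMM, 2 were higher and 35 lower, with medians of -0.32, 0.01, and -0.10. With the mouse as a block, 13 were higher. The mt- members made up much of the change in the count under other choices of cells. In place of 1 mt- member, 11 were among the 22 called higher with clusters of few UMIs left out, 11 among 25 with at most 20% mt- UMIs, and 10 among 22 with at least 500 genes. Without mouse 3, 3 were lower, and without mouse 4, 1 was.

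Ndufa6 of complex I had 226, 218, and 244 CPM in AT2 and 155, 165, and 156 CPM in AT1 cells (log2 change 0.86 ± 0.14, adjusted p = 1e-06). Ndufs4, an accessory subunit of complex I whose loss causes Leigh syndrome, went the other way, with 52.0, 49.3, and 51.5 and 122, 117, and 109.6 CPM (log2 change -0.85 ± 0.16, adjusted p = 1.6e-05). Neither overlapped. Ndufs6 had 122, 124, and 118 and 207, 190.2, and 224 CPM (log2 change -0.46 ± 0.12, adjusted p = 0.00166), and Ndufb6 had 52.0, 56.4, and 46.6 and 94.5, 86.4, and 93.3 CPM (log2 change -0.51 ± 0.15, adjusted p = 0.00647), and both lost their calls without mouse 4. Ndufa10 had 92.8, 85.0, and 89.6 and 80.8, 63.4, and 74.8 CPM (log2 change 0.59 ± 0.17, adjusted p = 0.0034) and lost its call without TMM (0.26). Of the core subunits Atp5a1 was higher in AT2 cells (0.52 ± 0.12, adjusted p = 0.000585), and of the mt- members mt-Nd6 was (log2 change 0.84 ± 0.22, adjusted p = 0.00182).

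The capillary EC types, Car4-type and Aplnr-type, differed in 1 member. None of 91 were higher in Car4-type cells (1 at an unadjusted p under 0.05 and 0 with DESeq2), whereas 4.14% of all genes were, and 1 was lower, whereas 3.68% were. That was Atp5k, a small subunit of complex V, with 101, 119, and 126 CPM in Car4-type and 161, 171, and 145 CPM in Aplnr-type cells (log2 change -0.48 ± 0.16, adjusted p = 0.0462), and it lost its call when any 1 of the mice was left out and with the mouse as a block (-0.48).

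Smooth muscle, pericytes, and myofibroblasts, grouped as contractile cells, were set against the fibroblast types. Of the 819 myofibroblasts, 375 were a cluster led by Pdgfra, Agt, and P2ry14, none of them a contractile gene, whose marker score of 2.07 was just over the minimum of 2 for a name. Of 91 members, 11 were higher and 11 lower, whereas 11.6% and 15.9% of all genes were. Nuclear members had a median log2 change of -0.08 and mt- members one of 0.35, against -0.01 for all genes, and mt-Atp8, mt-Nd3, and mt-Nd4l were the mt- members called, all higher. Without TMM, 13 were higher and 6 lower. Without mouse 4, 5 were higher, and 5 were lower without mouse 2, 2 without mouse 3, and 6 without mouse 4. The number of mt- members called was 10 with at most 20% mt- UMIs, with at least 500 genes, and with clusters of few UMIs left out, and 0 without mouse 4. Without the Pdgfra-led cluster, 7 members were higher and 13 lower, and without pericytes 5 and 5, with 0 mt- members among them.

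Sdhc, a membrane anchor of complex II, had 121, 148, and 153 CPM in smooth muscle, 82.7, 112, and 133 CPM in pericytes, and 56.0, 57.6, and 47.7 CPM in Col14a1-type fibroblasts (log2 change 0.59 ± 0.11, adjusted p = 3.1e-05). Atp5b had 430.1, 426, and 475 CPM in pericytes and 278, 207, and 222 CPM in Col14a1-type fibroblasts (log2 change 0.43 ± 0.12, adjusted p = 0.0029). The changes of Sdhc and Atp5b are between means over all contractile and all fibroblast types. Levels of myofibroblasts and Col13a1-type fibroblasts are not printed for them, and the Col14a1-type was the fibroblast type low in the nuclear share. Cox6b2 had 84.1, 107, and 131 CPM in Col13a1-type and 51.8, 32.7, and 53.3 CPM in Col14a1-type fibroblasts, above every contractile sum (at most 16.0 CPM; log2 change -2.69 ± 0.24, adjusted p = 8.1e-14). Atp5sl (-2.53 ± 0.70, adjusted p = 0.00411) had 0 UMIs in pericytes, which allows up to 3.64 CPM, and Cox6a2 (-3.79 ± 1.05, adjusted p = 0.00462) had 3 UMIs in all contractile cells, so that their fitted changes depend on the prior count. Both also lost their calls when single mice were left out, and Atp5sl did without pericytes (-0.78). Cox6a2 did with DESeq2 (-3.85) and without doublets (-2.38).

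**Figure D4:**
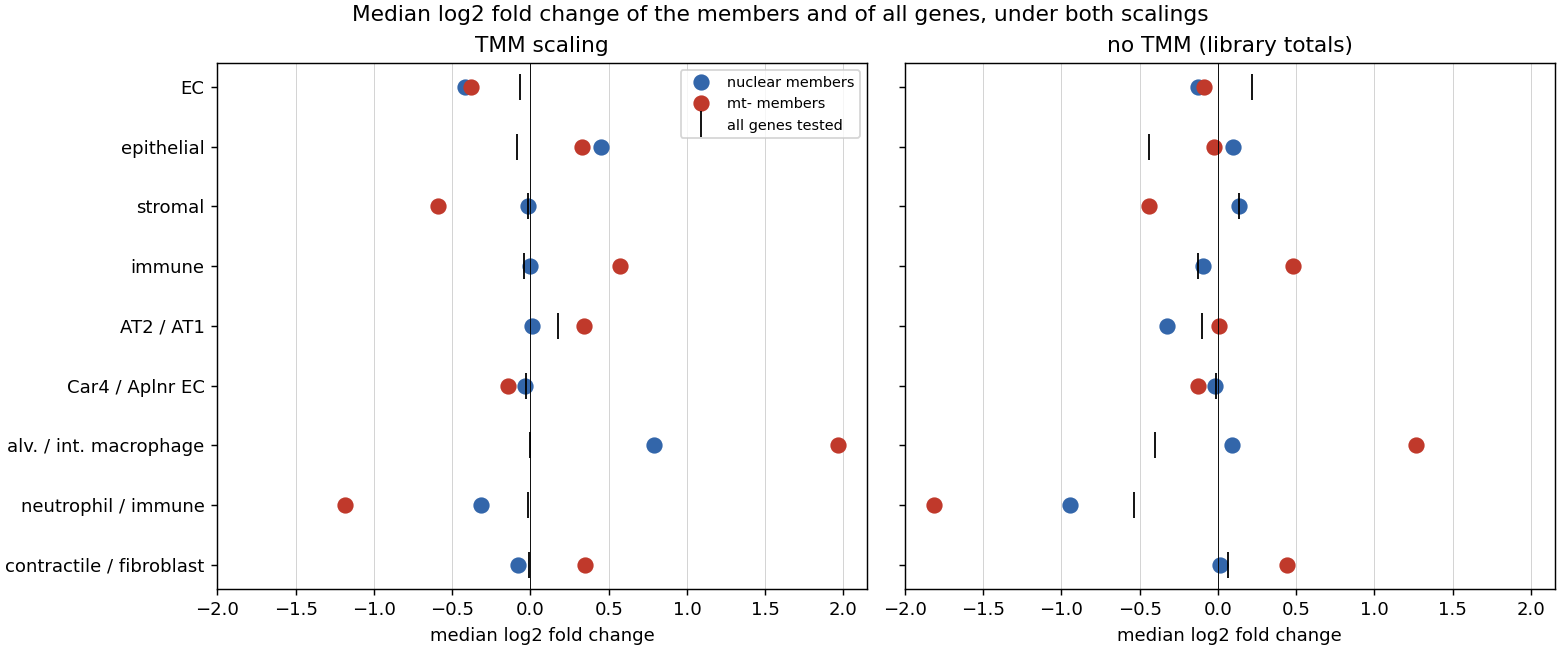
Median log2 fold change of nuclear members, mt- members, and all genes in each comparison, with TMM and with plain library sizes. In EC the nuclear median lies under that of all genes with both (-0.42 against -0.07 and -0.13 against 0.22), and its distance from 0 depends on the scaling.

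Isoforms were compared within pairs. Ndufa4l2 (chr10:127514967-127517154) outnumbered Ndufa4 (chr6:11900292-11907497) in pericytes, the mural cells of capillaries. Pericytes had 1219, 988, and 1176 CPM of Ndufa4l2 and 33.1, 5.92, and 13.7 CPM of Ndufa4. Smooth muscle had 134, 67.8, and 104 CPM and 339.6, 442, and 402 CPM, and myofibroblasts had 1.62, 2.25, and 2.48 CPM and 346, 303, and 331 CPM. Pericytes stood above every other type in Ndufa4l2 and below each of these stromal types in Ndufa4. As a share of the UMIs of the pair, Ndufa4l2 took 98.5% ± 1.06 in pericytes (953 against 17 UMIs), 22.3% ± 6.76 in Col14a1-type fibroblasts, 20.7% ± 7.49 in smooth muscle, 3.14% ± 1.15 in Aplnr-type capillary EC, and 0.116% ± 0.109 in AT2 cells (SD, n = 3 mice).

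By cell, 137 of 168 pericytes (81.5%) had a Ndufa4l2 UMI and 9 (5.36%) a Ndufa4 UMI, at a median of 3966 UMIs. In smooth muscle, at 10913 UMIs, 46.1% and 88.5% did. In AT2 cells, at 16083 UMIs, 0.548% had a Ndufa4l2 UMI, and in B cells, at 3807 UMIs, 0.339% did, so the share in pericytes was far above that in types at or near 0. NK cells, dendritic cells, and interstitial macrophages had 0 UMIs of Ndufa4l2, which allows up to 5.60, 1.76, and 6.66 CPM. In contractile cells against fibroblasts, Ndufa4l2 was higher (log2 change 1.93 ± 0.38, adjusted p = 5.1e-05) and Ndufa4 lower (log2 change -1.52 ± 0.14, adjusted p = 1e-13). Both calls rested on pericytes, and without these the changes were -0.13 ± 0.43, adjusted p = 0.913 and -0.11 ± 0.12, adjusted p = 0.543. The fibroblast levels were 93.3, 46.7, and 104 CPM of Ndufa4l2 in Col14a1-type and 1.62, 2.14, and 5.62 CPM in Col13a1-type cells, against the 1.62 to 2.48 CPM of myofibroblasts. Over the 62 sums per type and mouse, the genes most like Ndufa4l2 in log2 CPM among 10038 genes were Vtn (Pearson r 0.848), Pcdh18 (0.843), and Fam101a (0.821).

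The forms named for muscle and testis were found in other types here. Cox6a2 (chr7:128205435-128206387) had 45.2, 54.5, and 49.2 CPM in AT2 cells, which held 861 of its 1009 UMIs, and 2.10, 19.2, and 13.3 CPM in AT1 cells (log2 change 2.53 ± 0.45, adjusted p = 1.5e-05). The call was lost with DESeq2 (2.44). Cox6a2 took 19.9% ± 1.43 of its pair with Cox6a1 in AT2 and 3.25% ± 2.41 in AT1 cells. Cox6b2 took 23.8% ± 4.53 of its pair with Cox6b1 in Col13a1-type fibroblasts, 18.0% ± 2.55 in Col14a1-type fibroblasts, 14.3% ± 4.92 in alveolar macrophages, and 4.36% ± 0.382 in smooth muscle. Cox7a1 had 176 UMIs in all, 89 of them in epithelial cells, where AT2 cells had 2.88, 4.55, and 3.66 CPM, and 10 in alveolar macrophages, with 5.60, 8.52, and 4.64 CPM. The genes most like it were Mt1 (Pearson r 0.676), Inadl (0.67), and Plet1 (0.67), a weak relation at such counts. Of 53 UMIs of Cox8b, 35 were in Col13a1-type fibroblasts (16.2, 18.2, and 11.2 CPM), and Cox8c and Cox7b2 had 1 and 0 UMIs.

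An unnamed cluster of 177 cells, led by heart muscle genes such as Myl7, Tnni3, and Myh6, also held the muscle forms. It had 112, 99.1, and 171 CPM of Cox6a2, 74.5, 99.1, and 68.5 CPM of Cox7a1, and 62.1, 49.5, and 137 CPM of Cox8b, from 23, 14, and 15 UMIs. Its nuclear share of the UMIs other than mt- was 3.30%, 2.93%, and 3.08%, above every named type in each mouse.

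**Figure D5:**
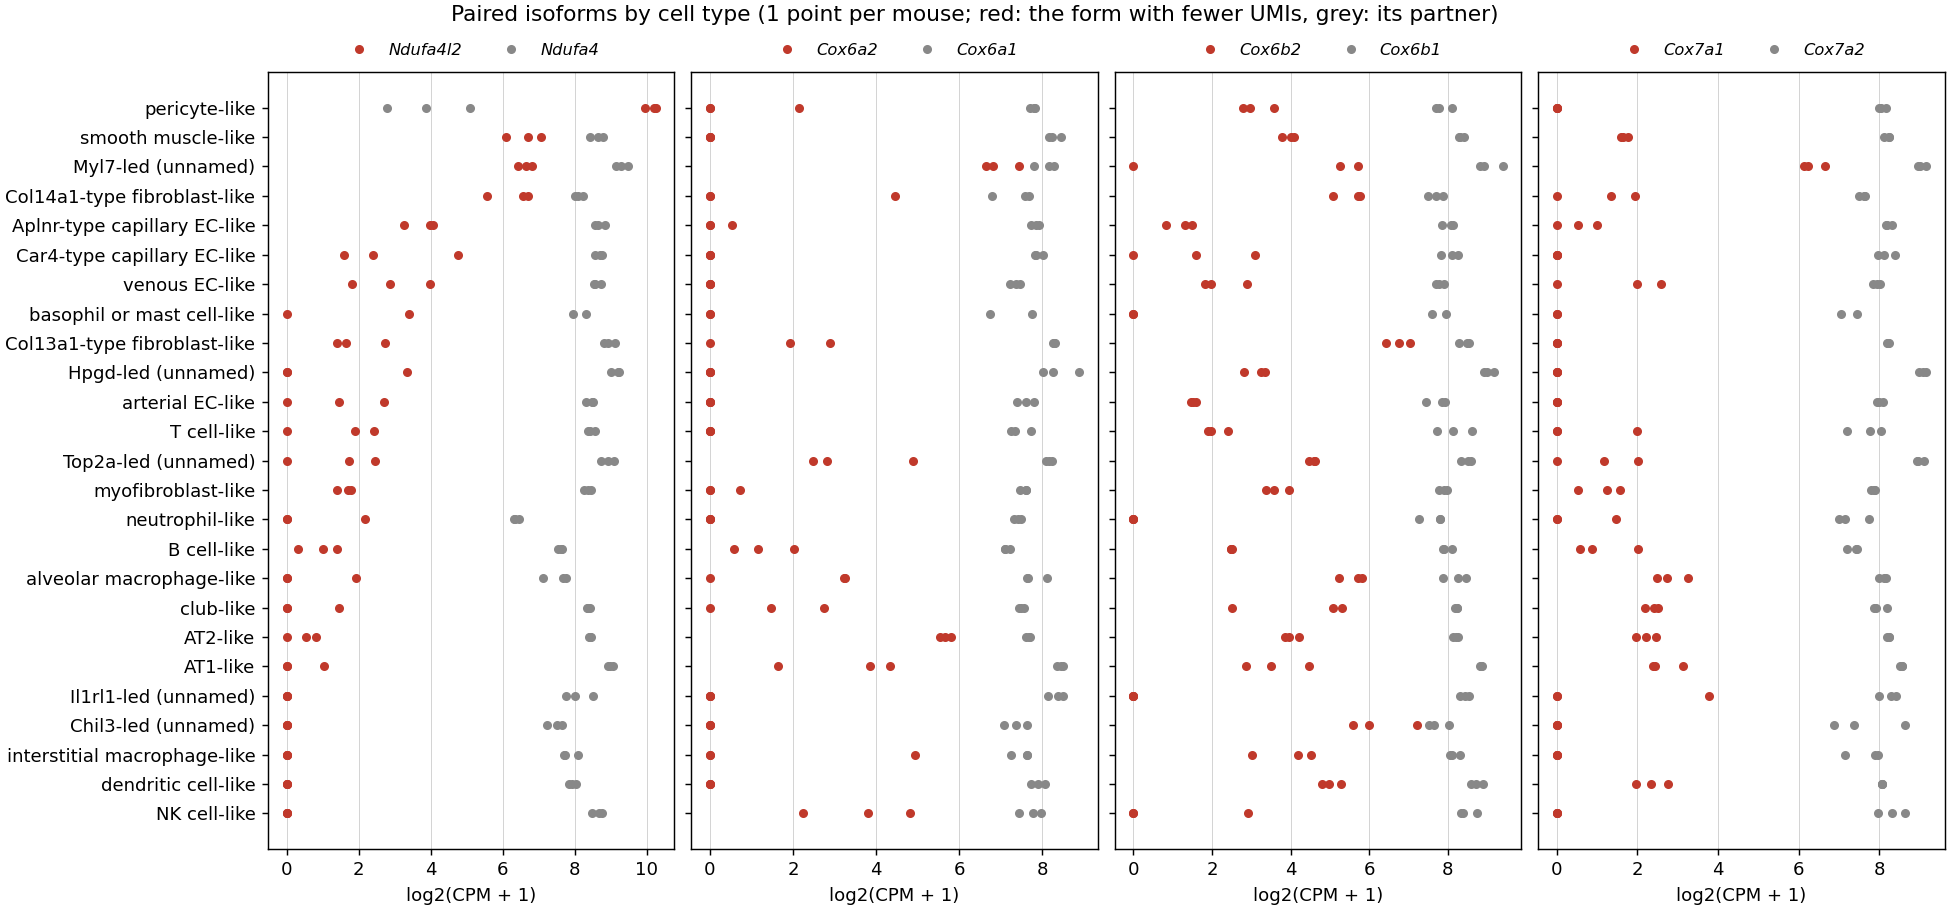
CPM of the members of 4 isoform pairs in each cell type, with 1 point per mouse. Ndufa4l2 lies above Ndufa4 in pericytes (1219, 988, and 1176 against 33.1, 5.92, and 13.7 CPM) and Cox6a2 is highest among named types in AT2 cells.

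Other genes of mitochondria and energy use were counted by lists, beside the backgrounds given above. All list counts and changes are from the main fit with TMM, and the lists were not counted without it. Plain library size moved the median of all genes from -0.07 to 0.22 in EC and from -0.08 to -0.44 in epithelial cells. The directions below are therefore stated for TMM scaling only. Of 76 genes of the mitochondrial ribosome, which translates the mt- members, 7 were higher and 41 lower in EC, 36 and 14 in epithelial, 11 and 24 in stromal, and 36 and 12 in immune cells. Mrps9, of its small subunit, was 1.72 ± 0.059 in epithelial cells (adjusted p = 1e-12). In neutrophils 39 were lower and 2 higher, with a median log2 change of -1.15. Of 22 genes that keep and express mitochondrial DNA, 10 were higher and 1 lower in immune cells, led by Tbrg4 (1.40 ± 0.12, adjusted p = 4.1e-08). In EC these counts were 1 and 5, in epithelial cells 4 and 7, and in stromal cells 2 and 5, all below the backgrounds. In neutrophils Tfam, which packages mitochondrial DNA and starts its transcription, was -2.04 ± 0.53 (adjusted p = 0.00143).

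Of 17 genes of the TCA cycle, 12 were lower in EC and 11 higher in epithelial cells, with 6 higher and 6 lower in stromal and 5 and 8 in immune cells. Idh2, the NADP-dependent isocitrate dehydrogenase of mitochondria, was 1.72 ± 0.063 in epithelial (adjusted p = 2.3e-12) and -1.86 ± 0.082 in immune cells (adjusted p = 1.5e-11). Of 18 carriers of electrons and metabolites, 12 were lower in EC and 13 higher in epithelial cells, and 7 were higher and 9 lower in stromal cells and 6 and 8 in immune cells. Ucp2, a carrier of the uncoupling protein family, was -4.43 ± 0.17 in stromal (adjusted p = 5e-12) and 2.53 ± 0.12 in immune cells (adjusted p = 2e-11).

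The glycolysis list went the other way from the members in neutrophils, as did the regulators of mitochondrial biogenesis given below. Of 20 glycolysis genes, 13 were higher, with a median log2 change of 1.03 against -0.32 for nuclear OXPHOS members. The lactate exporter gene Slc16a3 was 6.64 ± 0.17 (adjusted p = 1.4e-38) and the glucose transporter gene Slc2a3 4.84 ± 0.21 (adjusted p = 9.2e-27). In immune cells as a class 16 were higher and 4 lower, in EC 2 and 13, in epithelial cells 9 and 6, and in stromal cells 4 and 12. In alveolar against interstitial macrophages 5 were higher and 1 lower, led by Aldoa (1.86 ± 0.16, adjusted p = 2.1e-14).

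Of 43 assembly factors, 7 were higher and 10 lower in EC, 9 and 10 in epithelial, 9 and 13 in stromal, and 13 and 7 in immune cells. As shares, all of these were below those of all genes (29.7% and 30.8% in EC, 34.9% and 36.8% in epithelial, 36.0% and 31.4% in stromal, and 38.3% and 38.3% in immune cells). In neutrophils 3 of 38 tested were higher and 12 lower, with a median log2 change of -0.67. Cox17, the copper chaperone of complex IV, went against this list there (2.05 ± 0.13, adjusted p = 4.9e-21). Of 12 regulators of mitochondrial biogenesis, 3 were higher and 3 lower in EC, 4 and 5 in epithelial, 2 and 4 in stromal, and 6 and 2 in immune cells. In EC both counts were below the background, and in the other classes the counts fell on both sides of it. In neutrophils 6 of 11 tested regulators were higher and 1 lower, with a median log2 change of 1.07. Ppargc1a, which encodes the coactivator PGC-1α, was 2.20 ± 0.17 in epithelial (adjusted p = 1.2e-08) and -2.41 ± 0.25 in immune cells (adjusted p = 4.7e-07). Its relative Ppargc1b was 3.33 ± 0.71 in alveolar against interstitial macrophages (adjusted p = 0.000325).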

How the data were processed

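The deposited data are 3 10x Genomics matrices of UMI counts, 1 per lung, which the authors made with Cell Ranger 3.0.2 on genome build mm10, per the labels and methods. They are raw counts per gene and cell, with no normalization. Cells with at least 200 detected genes were kept with no mitochondrial limit. Counts were normalized with sctransform 0.4.2 (3000 variable genes, the members left out) and clustered with Seurat 5.3.0 in R 4.3.3 (30 principal components, resolution 0.8). Clusters were named from marker lists, and doublets were marked with Scrublet in scanpy 1.11.5 under Python 3.11.15. Member UMIs were summed per mouse and class or type (at least 10 cells) and tested with edgeR 4.0.16 (glmQLFit, TMM, filterByExpr, Benjamini-Hochberg adjustment over all genes, threshold 0.05). Gene positions are from GENCODE M21.

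The members and lists were chosen with earlier results of these data known. Named were all mt- members, isoform pairs, core subunits, the 3 nuclear members with the largest change each way per comparison that held in every mouse, up to 3 genes of smallest adjusted p from each other list, and the 3 genes most like Ndufa4l2 and Cox7a1. Mouse numbers are those of the labels, 1 library per mouse. As all cell types come from the same mice, the numbers pair the sums. The main fit left this pairing out, and the mouse block was an alternative. Deviations of same-numbered sums correlated at -0.03 to 0.32 over 18 class pairs (median 0.16, with 11 pairs over 0.1). Over 610 type pairs they correlated at -0.22 to 0.34 (median 0.04, with 132 pairs over 0.1). Each pair of libraries differed by more than counting noise, with a chi-square of at least 9.12 per degree of freedom. The test was checked on simulated data. For EC (13651 genes) it recovered 96.4% of changed genes and called 0.0966% of unchanged ones. For alveolar against interstitial macrophages (10452 genes) these values were 56.1% and 0.0292%. The changed genes had a median absolute log2 change of 2.00 for EC and 2.06 for the macrophages. Few genes were changed (196 and 173 of those tested), up or down at random, from a common mean profile and with no effect of the mouse. In the data, 29.7% of all genes were called higher and 30.8% lower in EC. Calls of unchanged genes under so many changes, where scaling matters more, were not tested. Recovery of changes as small as the median changes of the nuclear members was not tested. Alternatives were DESeq2 1.42.0, plain library sizes in place of TMM, the mt- members left out, all genes tested whatever their counts, a mouse block, at most 20% mt- UMIs, at least 500 genes, doublets left out, each mouse left out, classes from each cell's own markers, the members kept in the clustering, and resolution 1.2. Leaving out clusters with a median under 1500 UMIs, and leaving the Pdgfra-led cluster or pericytes out of the contractile cells, were chosen after seeing the data. Upper limits for 0 UMIs are 3 counts and cover counting error only. A member that enters every count and fit is not reported here on its own and has no row in the plot of fold changes.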

Additional observations from a re-analysis of the deposited data

Results flagged for a closer look

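The results here come from barcodes and clusters that entered none of the comparisons and whose OXPHOS UMIs lay far from the series as a whole. The 862 barcodes under 200 detected genes held 93.6% mt- UMIs and 0.134% nuclear OXPHOS UMIs. The Chil3-led cluster (69 cells) had a median mt- share per cell of 38.3% and a nuclear share of 0.966% of all UMIs (means of 3 mice). Chil3 also led the alveolar macrophage cluster, whose median mt- share was 34.1%, so a high mt- share was not particular to the unnamed cluster. Mki67 was the second leading gene of the unnamed cluster, and its best marker score was that of dividing cells (3.77). The Hpgd-led cluster (489 cells) had a median mt- share of 0.636% and a nuclear share of 2.17%, with a Malat1 share of 0.0527%, 0.224%, and 0.0398% in mice 2, 3, and 4. The Myl7-led cluster (177 cells), whose leading genes are those of heart muscle, had 1.00% and 2.75%. Summed over cells, mt- UMIs took 7.97%, 4.46%, and 10.9% in the Hpgd-led and 12.5%, 9.01%, and 12.8% in the Myl7-led cluster (mice 2, 3, and 4). These sums lay far above the medians per cell, so the low values are those of the median cell. The Hpgd-led and Myl7-led clusters had median depths of 864 and 782 UMIs, and the part of depth in their low median mt- shares was not tested.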

How the results depend on the processing

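Of 946 alternatives over 75 results, 857 changed neither direction nor call and moved counts by no more than 1.5 times, 61 moved a value or count, 27 ended the call of a named gene, and 1 turned a called direction, that of Ndufa4l2 in contractile cells against fibroblasts without pericytes (-0.13, not called). Outside these results, 5 members called higher in epithelial cells, named in the report, were called lower without TMM. Counts are members called higher and lower. Without TMM they became 14 and 36 in EC, 42 and 17 in epithelial cells, 37 higher in stromal cells, 2 and 35 in AT2 against AT1 cells, 21 and 2 in alveolar against interstitial macrophages, 0 and 77 in neutrophils, and 6 lower in contractile cells. With DESeq2 they became 2 lower in epithelial cells, 19 and 11 in AT2 against AT1 cells, and 5 lower in Car4-type EC. At most 20% mt- UMIs gave 25 higher in AT2 against AT1 cells, 3 lower in Car4-type EC, and 19 and 7 in contractile cells. Leaving out doublets gave 1 higher in EC, 19 higher in AT2 against AT1 cells, 2 lower in Car4-type EC, and 17 and 6 in contractile cells. With no filter on low counts 0 were lower in Car4-type EC and 6 higher in contractile cells, and with at least 500 genes 22 were higher in AT2 against AT1 cells. Leaving out clusters of few UMIs, an alternative chosen after seeing the data, gave 22 higher in AT2 against AT1 cells and 18 higher in contractile cells. In contractile cells, 2 more alternatives chosen after seeing the data gave 7 higher without the Pdgfra-led cluster and 5 higher and 5 lower without pericytes. The replicate block, with the mouse as the pairing, gave 13 higher in AT2 against AT1 cells and ended the call of Atp5k in Car4-type EC among the named genes, and it ended no other call of a named gene. Leaving out 1 mouse gave 1 to 2 higher in EC (1 without mouse 4), 2 to 3 lower in epithelial cells (2 without mouse 4), 1 to 5 lower in AT2 against AT1 cells (1 without mouse 4 and 3 without mouse 3), 0 lower in Car4-type EC, 35 to 53 higher in alveolar macrophages (35 without mouse 3), 4 to 9 higher in neutrophils (4 without mouse 3), and 5 to 14 higher and 2 to 6 lower in contractile cells (5 higher without mouse 4). Of UMIs other than mt-, the nuclear share became 1.37%, 1.61%, 1.57%, and 1.46% in EC, epithelial, stromal, and immune cells, and ran down to 1.22%, 1.46%, 1.45%, and 1.24% of all UMIs without single mice. At most 20% mt- UMIs set the mt- share to 7.61%, 7.94%, and 9.14% in EC, epithelial, and immune cells, and the ratio to 0.166, 0.188, 0.219, and 0.147 in EC, epithelial, stromal, and immune cells. At least 500 genes gave a mt- share of 12.2% in immune cells, and classes from each cell's own markers gave ratios of 0.166 in EC and 0.207 in stromal cells. The causes were not tested. Depth limits the isoforms with few UMIs and the types with few cells.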
